A study of Drosophila melanogaster with 2 samples.

Results

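The genes described here are the 5 Drosophila genes that encode GATA zinc finger transcription factors, pnr, srp, grn, GATAd and GATAe, and ush, which encodes their cofactor. They are 6 of 13945 annotated protein-coding genes. They were chosen by name with earlier values of the same peaks in view, among them the very high signal of a peak at ush, so that peak and the number of peaks at each gene are given as a description with no test. The peaks of a gene are all those whose summit, the base the authors' caller placed at the top of a peak, lies in the gene or within 5 kb of it.

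The data come from chromatin immunoprecipitation followed by sequencing (ChIP-seq) of CG15710, a Drosophila protein known by its annotation number. All animals came from a transgenic line that stably expresses CG15710 with GFP at its C-terminus, and an antibody against GFP was used on sonicated chromatin of whole pupae, males and females pooled, at 24 hours. There was 1 group with biological replicates 1 and 3, and no untagged or input sample was analysed here. Whole animals mix all cell types, so a peak in few cells and a weak peak in many cells cannot be told apart. The 4 deposited peak lists are on genome build dm6. They hold the 30000 peaks of each replicate, as many from the replicates pooled, and 8483 peaks in the authors' irreproducible discovery rate (IDR) list. IDR is a measure of how alike replicates rank peaks. All 8483 were the strongest of the pooled list, so the rank of a peak is the same in the IDR list and the pooled list, with rank 1 the strongest. The signal is the value the authors' caller gave a peak, in a unit not given in the sources used here, and depth is unknown because the lists hold no read counts.

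GATA factors bind DNA through zinc fingers that read words such as AGATAA. In the fly, pannier (pnr) patterns the dorsal epidermis and the notum and is needed for the heart, serpent (srp) is needed for blood cells, the fat body and the endoderm, GATAe maintains the midgut, and grain (grn) acts in the nervous system and in the shaping of epidermal organs. U-shaped (ush) is the fly member of the FOG family of multiple zinc finger proteins, which bind GATA factors and change what they do, as when U-shaped restrains Pannier in the notum and limits blood cell fates together with Serpent.

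The sequences below show the summits the results turn on, each as the plus strand of dm6 from 50 bp left to 50 bp right of the summit. The first set holds the strongest ush peak, the second ush peak, which lies at the promoter of the nested gene cbt, and an intronic peak each of pnr, grn and GATAd. Capitals mark AAAATA or its reverse complement TATTTT. Of all 6-letter words, this one had the largest difference in percentage points between the summits of other peaks and windows 300 bp to their left.
ush chr2L:481029-481129: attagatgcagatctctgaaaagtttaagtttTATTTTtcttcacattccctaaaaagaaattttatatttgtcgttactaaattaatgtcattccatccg
ush chr2L:480018-480118: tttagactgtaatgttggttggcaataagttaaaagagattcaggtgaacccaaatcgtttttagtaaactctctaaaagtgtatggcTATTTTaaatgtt
pnr chr3R:16036145-16036245: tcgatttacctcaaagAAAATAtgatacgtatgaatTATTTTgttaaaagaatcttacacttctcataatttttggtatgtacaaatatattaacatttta
grn chr3R:8154124-8154224: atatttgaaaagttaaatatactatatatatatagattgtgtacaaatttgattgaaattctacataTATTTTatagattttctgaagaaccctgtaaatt
GATAd chr2L:10335038-10335138: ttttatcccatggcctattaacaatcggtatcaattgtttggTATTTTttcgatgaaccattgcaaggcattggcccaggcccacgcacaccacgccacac

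The second set holds the strongest srp peak, the ush peak with the most GATA words and another intronic ush peak. Capitals mark the word AGATAA, the word AGATAG, the word TGATAA or the word TGATAG, or the reverse complement of one of them.
srp chr3R:15984574-15984674: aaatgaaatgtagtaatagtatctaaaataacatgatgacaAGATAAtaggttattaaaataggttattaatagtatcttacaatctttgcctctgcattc
ush chr2L:493378-493478: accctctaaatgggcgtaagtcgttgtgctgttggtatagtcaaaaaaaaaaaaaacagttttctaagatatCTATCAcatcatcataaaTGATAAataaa
ush chr2L:520790-520890: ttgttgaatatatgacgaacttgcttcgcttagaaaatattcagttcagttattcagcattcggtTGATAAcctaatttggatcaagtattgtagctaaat

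Peaks of the IDR list lay at 5 of the 6 genes, all but GATAe, while 57.4% of all protein-coding genes had an IDR summit in the gene or within 5 kb. With 5 kb on each side, the 6 genes spanned 15452 to 74341 bp. All were longer than the median of 12166 bp, and a longer stretch can hold more summits. The 6 genes held 29 distinct IDR summits, of which ush had 18, srp 3, grn 3, GATAd 3, pnr 2 and GATAe 0. Only ush had an IDR summit at its own promoter, within 500 bp of a transcription start site (TSS), which is 1 of 6 genes against 24.6% of all protein-coding genes. From the 8483 strongest peaks of replicate 1 alone 2 genes had one, ush and grn, and from those of replicate 3 alone 1, ush. That replicate 3 summit is another one, at -499 bp from the third ush TSS. The replicate 3 peak matched to the IDR promoter peak has its summit at -521 bp, just outside the promoter window. The 29 signals ran from 170.5 to 7038 with a median of 322.7, near the median of 329.4 over all IDR peaks. Setting aside the few strong peaks of ush and the strongest peak of srp, the GATA genes carried peaks of ordinary or low signal.

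**Figure D1:**
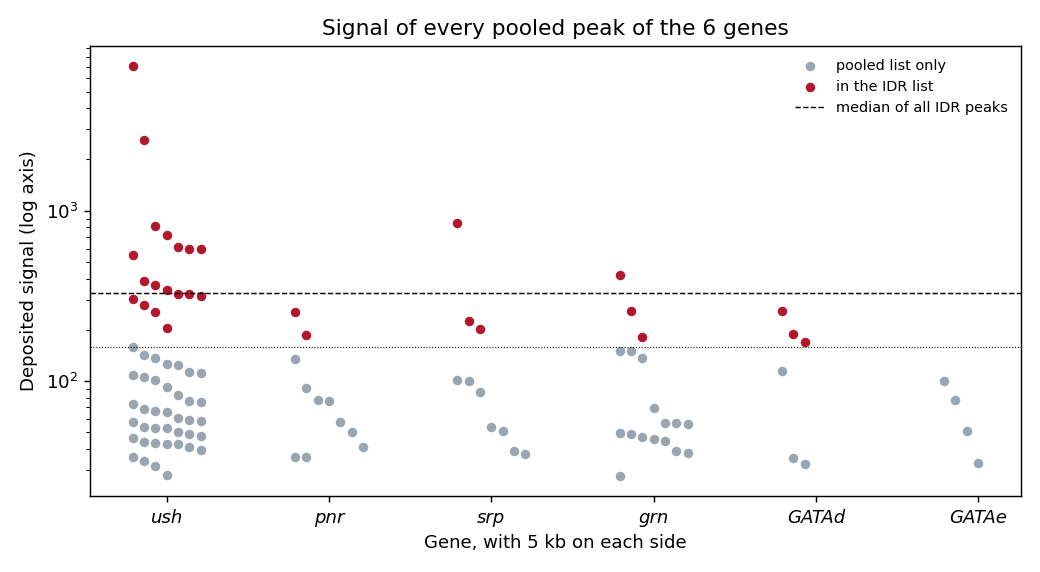
Each point is a pooled peak of one of the 6 genes, with its deposited signal on a log axis. Red points are in the IDR list, the dotted line is the lowest IDR signal (159.0) and the dashed line the median of all IDR peaks (329.4). The peak of ush at 7038 stands far above the others, and every GATAe peak lies under the dotted line.

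ush (FBgn0003963) occupies 2L 476220-540560 on the plus strand, 64341 bp with 4 TSSs at 476220, 490835, 523466 and 523736. Its strongest peak, at 480547-481351 with the summit at 481079, had signal 7038 and rank 3 in the pooled list, signal 4391 and rank 4 in replicate 1, and signal 2681 and rank 5 in replicate 3. The summit moved by 2 bp in replicate 1 and 26 bp in replicate 3. This peak was thus among the strongest of each list, at the same place.

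The peak lies in intron 1 of ush, 4859 bp downstream of the first TSS and, as signed distances that are negative upstream, at -9756, -42387 and -42657 bp from the other TSSs of ush. The nearest protein-coding TSS is not one of ush. It belongs to cbt (cabut, FBgn0043364), which encodes a zinc finger transcription factor and lies on the opposite strand inside that intron at 2L 476446-479688, and the summit is at -1391 bp from it.

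The 2 next strongest ush peaks are also at cbt. The stronger of them, at 479822-480302, had its summit at -380 bp from the cbt TSS, signal 2593 and rank 152, with rank 162 in replicate 1 and rank 130 in replicate 3. The weaker, at 478906-479319, lies in the 5′ UTR of cbt at 556 bp, with signal 815.1 and rank 1469. In replicate 1 it had signal 678.1 and rank 935, and in replicate 3 signal 139.2 and rank 4105, so its place in the order differed between the replicates. The 3 strongest peaks sit within 1947 bp, and the signal fell from each to the next by factors of 2.71 and 3.18. Which gene, ush or cbt, such a peak belongs to was not tested.

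Peaks with lower signal continued through the rest of the locus. Intron 1 of the longest ush transcript, 49060 bp long, held 15 of the 18 summits. The next strongest peak in it, at 510551-510964, had signal 721.9, rank 1236 in replicate 1 and rank 3748 in replicate 3, and lies at -12682 bp from the nearest ush TSS. The peak at 516083-516366 had signal 595.7 with ranks 2171 and 2208, and lies at -7224 bp. The former differed between the replicates and the latter hardly did.

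Intron 2, 10586 bp long, held 1 IDR peak, at 530277-530543, with signal 592.8 and ranks 2029 and 2658 in replicates 1 and 3. Upstream of ush, 2 peaks with signals 608.5 and 547.4 lie at 212 and -246 bp from a TSS of the neighbour CG4297, with ranks 2086 and 2433 in replicate 1 and 2154 and 2497 in replicate 3. These are promoter peaks of CG4297 by position and enter the ush count only through the 5 kb margin.

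The single IDR summit at a ush promoter, at 490363 in the peak 490181-490385, was among the weaker ones. It lies at -472 bp from the second ush TSS, which is also the start of the nested noncoding gene lncRNA:CR46258. It had signal 302.1 and rank 4637, rank 4441 with signal 194.6 in replicate 1, and rank 3106 with signal 179.1 in replicate 3. An IDR summit with signal 315.1 lies at -541 and -811 bp from the last 2 TSSs of ush, just outside the promoter window. The other 8 IDR peaks in intron 1 had signals from 203.7 to 385.3 and ranks from 3614 to 6752, in the middle of the IDR list and towards its weak end.

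**Figure D2:**
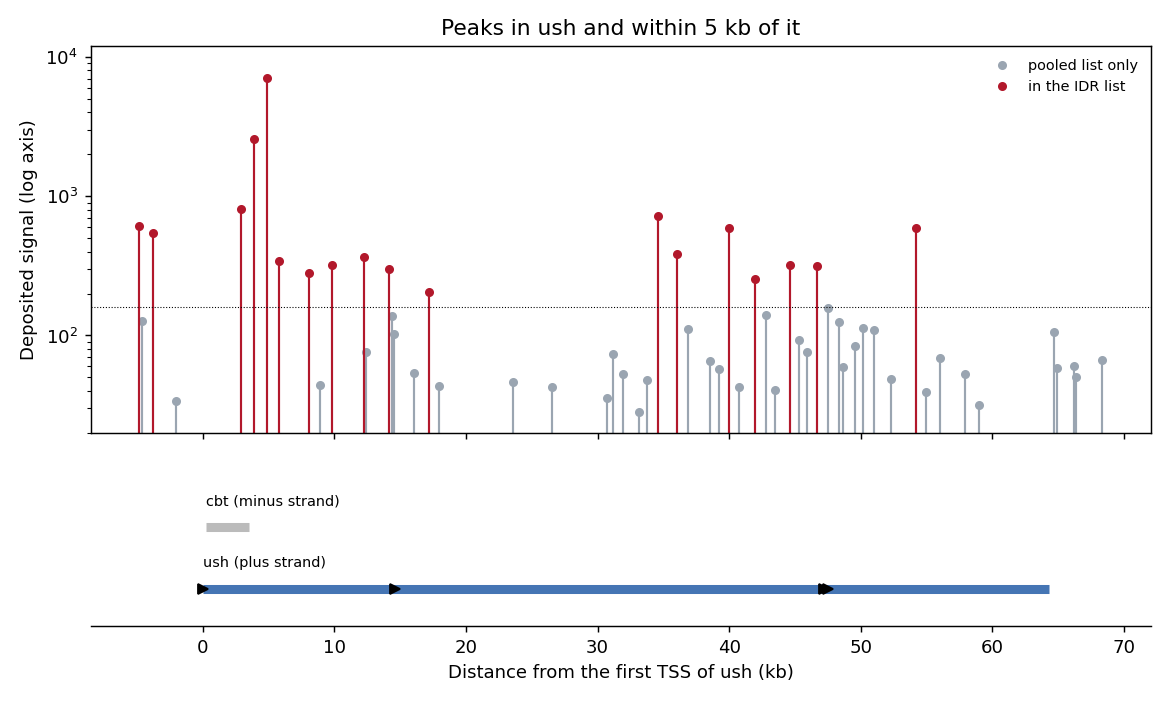
Vertical lines mark the pooled summits in ush and within 5 kb by distance from its first TSS (kb), with the deposited signal on a log axis, red for the IDR list and grey for the pooled list only. The bars show ush and the nested gene cbt, arrowheads the ush TSSs and the dotted line the lowest IDR signal (159.0). The 3 strongest peaks stand at and just beyond cbt, and a stretch of 17356 bp in the middle of the gene holds no IDR summit.

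By number, the 18 IDR summits of ush put it at position 15 of the protein-coding genes, a place it shared within a tie of 5 genes, where the median gene had 1 and the highest 36. Per length, ush had 0.242 IDR summits per kb, 3.82 times the 0.0634 per kb of the genome arms, which put it at position 1074 by density. Among the 198 genes with a window at least as long as that of ush, it was at position 3 by density, with a median of 4 summits and 0.0402 per kb for these genes. Among genes of such length, ush thus had one of the highest densities. This counts all 18 summits in its window, of which 7 are nearest to a TSS of cbt or CG4297.

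The summits of ush had a median gap of 2085 bp, against 4891 bp between neighbouring IDR summits over all arms. The smallest gap was 891 bp and the largest, from 493428 to 510784, 17356 bp. The peaks thus comprise 2 upstream of ush at CG4297, a group around cbt and the front of intron 1, another towards the last TSSs, and the 1 peak in intron 2.

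The GATA genes come next. srp (FBgn0003507, 3R 15986152-16004085, plus strand, 17934 bp, 4 TSSs) had the strongest peak among them, at 15984430-15984907 between genes, 1528 bp upstream of the first srp TSS. Its signal was 851.8 at rank 1384, with signal 569.5 and rank 1224 in replicate 1 and signal 293.9 and rank 1651 in replicate 3. It ranked alike in both replicates and is the srp window shown above with AGATAA in capitals.

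The other 2 srp peaks were weaker. The peak at 15993374-15993773 lies in a noncoding exon of lncRNA:CR44133, which overlaps srp, at -566 bp from the third srp TSS, with signal 225.2 and ranks 7788 and 6057 in replicates 1 and 3. The peak at 15987339-15987738 lies in intron 1, 1387 bp from the first TSS, with signal 203.2. Its rank was 4839 in replicate 1 and 14747 in replicate 3, so it rests mainly on replicate 1.

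pnr (FBgn0003117, 3R 16026079-16041796, plus strand, 15718 bp, 3 TSSs) had 1 IDR peak in the gene, at 16036137-16036274 in intron 1, 1609 bp from its last TSS and 9943 and 10116 bp from the others. Its signal was 253.4 at rank 5514, with ranks 5576 and 6329 in replicates 1 and 3. A second peak, at 16042893-16043015, lies 1175 bp downstream of pnr and at -527 bp from the TSS of Jhbp4, with signal 185.5, rank 6471 in replicate 1 and rank 9215 in replicate 3. Both are low in the IDR list, and the second is nearer to the neighbour.

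grn (FBgn0001138, 3R 8147368-8181444, minus strand, 34077 bp, 1 TSS) had 3 IDR peaks, all in introns and far from its TSS. The strongest, at 8154041-8154277 in intron 5, lies 27270 bp from the TSS with signal 422.2, rank 3857 in replicate 1 and rank 2944 in replicate 3. The peak at 8171654-8171774 in intron 2 had signal 257.4 with ranks 5727 and 5717. The peak at 8164840-8165239 in intron 4 had signal 180.9, rank 5531 in replicate 1 and rank 20614 in replicate 3. The first and second of these were ranked alike by the replicates and the third was not.

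GATAd (FBgn0032223, 2L 10333734-10339185, plus strand, 5452 bp, 2 TSSs) had 3 IDR peaks of which 1 lies in the gene. That peak, at 10334888-10335287 in intron 1, 1174 bp from the nearest GATAd TSS, had signal 188.0, rank 6851 in replicate 1 and rank 10517 in replicate 3. The strongest, at 10339252-10339422 with signal 257.4 and ranks 5518 and 5434, lies 139 bp downstream of GATAd and at -133 bp from a TSS of SamDC, which encodes a decarboxylase of polyamine synthesis. The third, at 10341302-10341701 with signal 170.5 and ranks 7558 and 8452, lies at -114 bp from a TSS of CG31715. By position, 2 of the 3 peaks counted for GATAd are thus promoter peaks of its neighbours.

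GATAe (FBgn0038391, 3R 16009105-16019133, plus strand, 10029 bp, 2 TSSs) had no IDR peak and 4 pooled peaks, all outside the gene. The strongest, at 16005046-16005445, lies 3859 bp upstream in a noncoding exon of lncRNA:CR42839 and also falls within 5 kb of srp. Its signal was 100.1 at rank 12390, with rank 9983 in replicate 1 and rank 26295 in replicate 3. The other 3 had signals 77.7, 50.8 and 33.1, and the only peak within 500 bp of a GATAe TSS was in the list of replicate 3, 266 bp from it, at rank 29224, near the end of that list.

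srp, GATAe and pnr are neighbours on 3R in the same orientation, from 15986152 to 16041796, with 5019 bp between srp and GATAe and 6945 bp between GATAe and pnr. This stretch of 55645 bp with 5 kb on each side held 5 IDR summits, 3 at the srp end and 2 at the pnr end. Between them lay 42621 bp without an IDR summit, from 15993574 to 16036195, which includes all of GATAe. Of the 8477 gaps between neighbouring IDR summits, 7.60% were at least as long. The gap held 9 pooled summits with signals up to 101.7, so it was low in signal rather than empty.

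**Figure D3:**
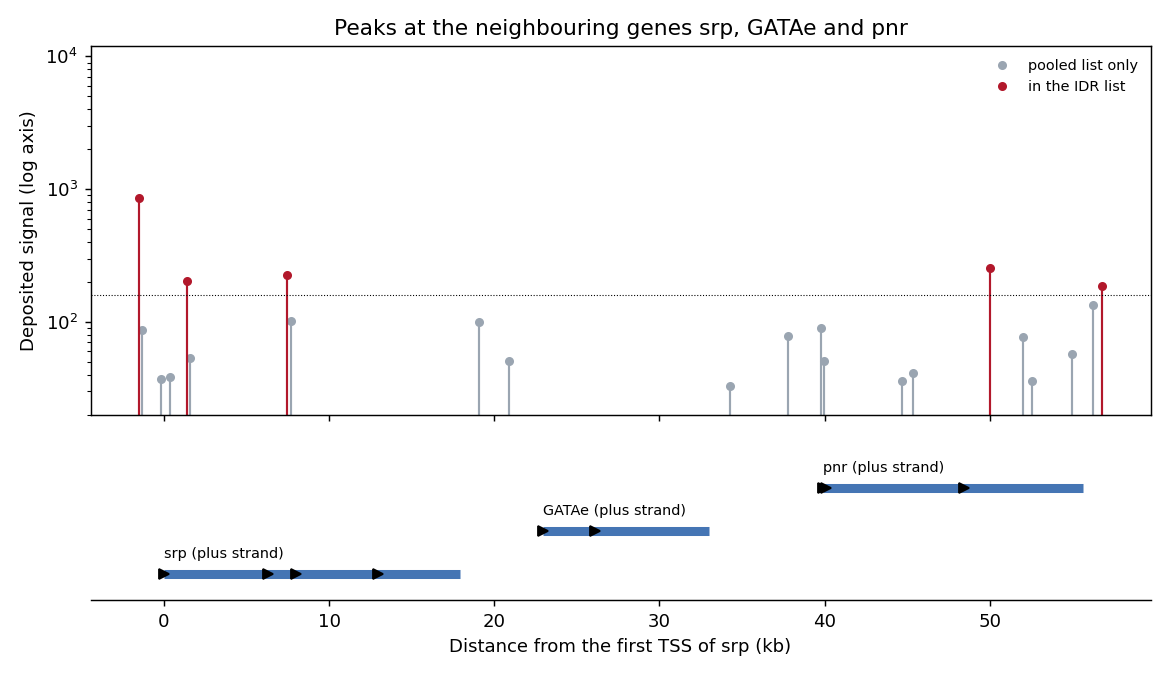
Vertical lines mark pooled summits at srp, GATAe and pnr by distance from the first srp TSS (kb), with the deposited signal on a log axis, red for the IDR list and grey for the pooled list only. Bars show the genes, arrowheads their TSSs and the dotted line the lowest IDR signal (159.0). The 5 red summits are at the srp and pnr ends, and GATAe lies in the gap of 42621 bp.

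Weaker peaks were present at most promoters of these genes. In the pooled list, 5 of the 6 genes had a summit within 500 bp of a TSS, all but GATAe, against 47.0% of all protein-coding genes. A gene with more TSSs has more places where a summit can count, and this share was not matched for the number of TSSs. Of the 16 TSSs of the 6 genes, 1 had an IDR summit within 500 bp, and 10 had a summit in the pooled list, 10 in replicate 1 and 10 in replicate 3. The share over all annotated TSSs was not counted. Close TSSs of ush, pnr and GATAd share a pooled summit, so these TSS counts are not counts of separate peaks. The strongest of these promoter peaks outside the IDR list was 1 bp from the last ush TSS, with signal 158.1, rank 7749 in replicate 1 and rank 10769 in replicate 3.

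The grn TSS had a summit at -230 bp with signal 150.7 and ranks 8066 and 10759, and the first GATAd TSS one at 7 bp with signal 114.5 and ranks 11492 and 11739. At pnr and srp the promoter peaks were weaker. Those at the first pnr TSS had signals 90.6 at -158 bp and 50.4 at 45 bp. Those at the first srp TSS had signals 37.4 at -184 bp and 38.6 at 359 bp. The third srp TSS had signal 101.7 at -319 bp. The count of promoters with a peak thus turns on where the list ends, as the lowest IDR signal, 159.0, is only just above the ush and grn promoter peaks.

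The edges of the rule were as follows. The IDR summits just inside the list were those of GATAd at 170.5, grn at 180.9 and pnr at 185.5, and the pooled summits just outside it were those of ush at 158.1 and grn at 150.8 and 150.7. At the 5 kb edge, the outermost IDR summit of ush lies 4877 bp from the gene with signal 608.5, and the first outside 7199 bp away with signal 210.7. For grn, an IDR summit with signal 164.2 lies 5065 bp from the gene and was not counted. For the other genes the first IDR summit outside is 7767 bp away or farther.

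In class, 19 of the 29 IDR summits were in introns (65.5%, against 42.3% of all IDR summits) and 6 at promoters (20.7% against 36.6%), with 2 intergenic, 1 in a 5′ UTR and 1 in a noncoding exon. The nearest protein-coding TSS belonged to the gene itself for 19 of 29, and only 1 of the 6 promoter summits was at the promoter of the gene it was counted for. For ush that held for 11 of 18, the others being nearest to cbt or CG4297. For srp and grn it held for all 3 summits each, for pnr for 1 of 2 and for GATAd for 1 of 3. Over the 103 pooled summits the classes were much the same, with 62 in introns (60.2%, against 44.4% of all pooled summits) and 22 at promoters (21.4% against 29.4%). Most of the intron summits were at ush, 13 of the 19 in the IDR list and 41 of the 62 in the pooled list.

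All 29 IDR peaks overlapped a peak in both replicates, against 96.9% of all IDR peaks, with at least 1 bp counted as overlap. For 28 of them the summits of both replicates were within 100 bp of the pooled one, and the exception was the ush promoter peak, whose summit in replicate 1 was 107 bp away. Of the 74 pooled peaks of these genes outside the IDR list, 43 were in both replicates, 18 in replicate 1 only and 13 in replicate 3 only. When at least 50% of both peaks had to overlap, 18 of the 29 were in both replicates. The IDR list holds the strongest peaks of the pooled list, which was called from both replicates together. Presence in both replicates is thus largely tied to being in that list.

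The ranks in the replicates differed by more than 2-fold for 4 of the 29 peaks (13.8%), against 12.3% of the other IDR peaks that had a match in both. All 4 stood higher in replicate 1. They are the ush peaks at 479132 and 510784, the srp peak at 15987539 and the grn peak at 8165040, whose ranks are given above. Among the other IDR peaks, 692 of the 1005 such peaks stood higher in replicate 1 and 313 in replicate 3, so this side was the commoner one in these lists. The median difference of ranks was 0.36 on the log2 scale for the 29 and 0.35 for the others.

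**Figure D4:**
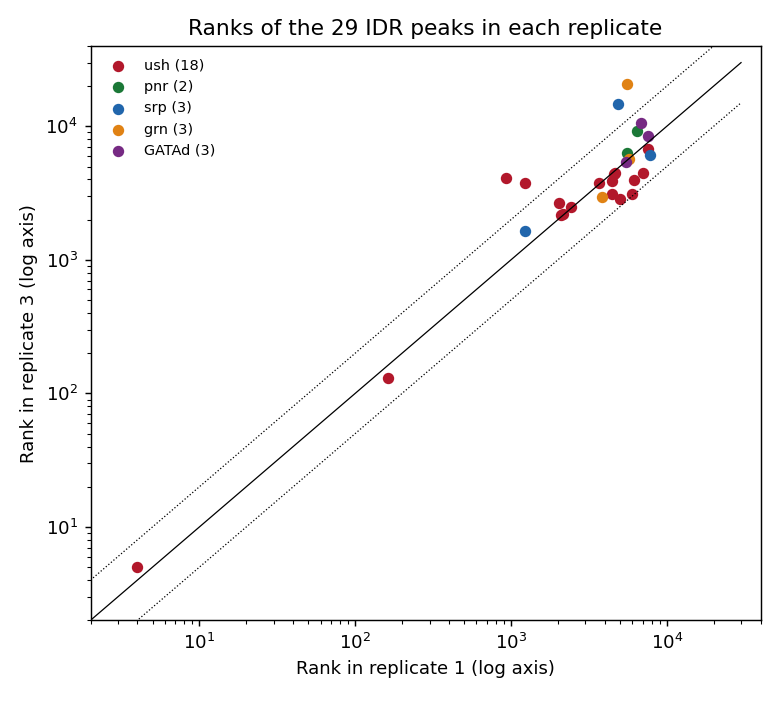
Each point is 1 of the 29 IDR peaks, by its rank in replicate 1 and in replicate 3, both on log axes, coloured by gene with the number of peaks in the key. The solid line marks equal ranks and the dotted lines a 2-fold difference. The strongest peak of ush stands alone at ranks 4 and 5, and 4 points lie beyond the upper dotted line, ranked higher in replicate 1.

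The sequence under the summits was read next, since the genes encode factors with a known DNA word. A word was counted when it occurred on either strand within 50 bp of a summit, and a window of the same length centred 300 bp to the left served as flank. The GATA words marked in the sequences above, read together, were in 5 of the 29 summit windows, 4 at ush and 1 at srp, and in 4 of the 29 flanks. Of the 8454 other IDR summits 22.7% held one, and 14.5% of their flanks. The count for these genes is near that background. The 4 letters GATA alone were in 12 of 29 windows, against 54.6% of the others.

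The 2080 possible 6-letter words were ordered by the difference, in percentage points, between their shares at other summits and in flanks. In this order the GATA words were at positions 220, 224, 398 and 420. The leading words were made of A and T. The first, AAAATA, was in 39.1% of the other summit windows and in 17.4% of their flanks. By ratio other words would stand ahead of it, such as ATATTA, in 22.8% of the other summit windows and 5.76% of their flanks. AAAATA was in 21 of the 29 windows of these genes (72.4%) and in 7 of their flanks, and ush had it in 11 of its 18. Over all 103 pooled peaks of these genes the word was in 39 (37.9%), against 28.7% of the other pooled peaks, so the difference was much smaller in the longer list. The words that came next showed no such gap, with TTAAAA in 33.9% of the other windows and 9 of the 29, and AAATAT in 34.4% and 9. Among the first 15 words, the next highest count at these genes was 15 of 29, for AAATAA, which overlaps AAAATA and was in 35.9% of the other windows.

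The windows at the summits were poor in G and C at these genes and elsewhere. Their median share of G and C was 31.7% for the 29, from 15.8% to 50.5%, and 30.7% for the others, while the flanks had 49.5% and 45.5%. Of the sequences shown above, the grn window has 18.8% and the strongest ush window 26.7%, while the GATAd window, at 46.5%, is close to the flanks. The part of base composition in the word counts was not tested, and a match of letters in these windows is a description and not a binding site.

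Some other known words were counted too. GAGAG was in 5 of the 29 windows and 6 of their flanks, and in 9.71% of the other summit windows and 15.9% of their flanks. The DRE word TATCGATA was in 0 of the 29 and 0.97% of the others, the E-box CACGTG in 0 and 0.52%, and the Zelda word CAGGTAG in 0 and 0.296%. The E-box CATATG was in 1 and in 3.95%.

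**Figure D5:**
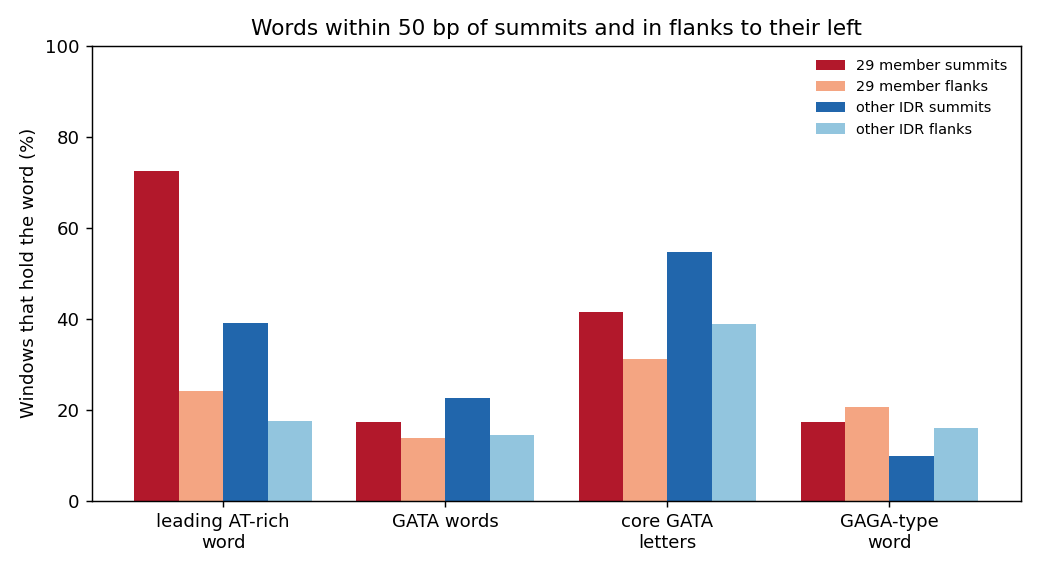
Bars give the share of windows (%), 50 bp to each side of the centre, that hold a word on either strand, for the 29 summits of these genes and their flanks and for the other 8454 IDR summits and their flanks. The leading AT-rich word is in 72.4% of the IDR summits of these genes and 39.1% of the others (37.9% and 28.7% over the pooled list, not drawn), the GATA words in 5 of 29 and 22.7%, and no error is drawn because each bar is a count over one list.

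Lists of genes taken to act with the GATA factors, as partners, targets or regulators of the same tissues, were looked up. Among 12 partners and notum or dorsal targets of pnr, 0 had an IDR summit at a promoter and 7 (58.3%) had one in the gene or within 5 kb, against 24.6% and 57.4% of all protein-coding genes. Among 10 heart regulators, 2 had one at a promoter and 8 in the window. Of these, Doc2 and Doc3 count through the same peak, with signal 162.2 at rank 8349, and tup is also in the pnr list. The 2 with a promoter summit are tin and the T-box gene mid. The peak at tin, the NK homeobox gene needed for heart formation, had signal 1514 and rank 522 at -219 bp, and that at mid signal 239.8 at -371 bp.

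Among 18 regulators and markers of blood cells, where srp and ush act together, 3 (16.7%) had an IDR summit at a promoter and 12 (66.7%) in the window. The shares of all protein-coding genes were 24.6% and 57.4%. The 3 are crq, a scavenger receptor of macrophages, at 295.5, the receptor gene Pvr at 227.4 and the JAK/STAT factor gene Stat92E at 186.3. These promoter peaks were all under the median IDR signal. Stronger peaks lay elsewhere in the windows of Pvr, up to 1239, and Stat92E, up to 1251, but not in that of crq. Among 9 genes listed as regulators of endoderm and gut, 4 (44.4%, against 24.6%) had one at a promoter and 6 (66.7%, against 57.4%) in the window. The zinc finger gene bowl was the highest of these, with signal 2720 and rank 125 at -207 bp, and the homeobox genes cad, at 232.9, and pdm3, at 187.3, were far lower. The place of pdm3 among gut regulators was not checked against a source, so the 4 may include a gene outside this theme.

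Among 10 corepressor partners of ush and nucleosome remodelling genes, 4 (40%) had an IDR summit at a promoter and 8 (80%) in the window. The shares of all protein-coding genes were 24.6% and 57.4%. The highest at promoters were MBD-like at 463.1, simj at 338.9 and MTA1-like at 295.2, which encode subunits of the NuRD remodelling complex. These lists are short and each share rests on a few genes, so they show which genes had peaks and not that a list stands apart.

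The protein-coding genes most like ush in the number of IDR summits and the rank of the strongest were HmgD, HmgZ, larp, CG4004 and CG11050, by the sum of both differences on the log2 scale, which ran from 1.77 to 3.25. HmgD and HmgZ, neighbouring genes for HMG box chromatin proteins, had 12 and 10 IDR summits and share a strongest peak with signal 6542 at rank 7. The RNA-binding protein gene larp had 5 summits and a strongest signal of 7034 at rank 4, at its own promoter (-326 bp), unlike ush. CG4004 had 8 with rank 10, and CG11050 had 2 with rank 2. The strongest peaks of larp and ush had nearly the same signal, 7034 and 7038. ush had the most summits of these genes but also by far the longest window, 74341 bp. The windows of HmgD, HmgZ, larp, CG4004 and CG11050 were 25270, 20374, 28279, 15574 and 16107 bp, so its lead is in number and not per length.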

How the data were processed

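ChIP-seq peaks of CG15710-GFP from whole pupae were described in 1 group with 2 biological replicates. The authors deposited 4 narrowPeak lists on dm6, per the labels; replicates were called separately and pooled, each with a further input file that the deposited descriptions do not specify. The sources used here give no aligner, caller, IDR threshold or version, and the control experiment the labels name was not analysed here. The signal of a peak (column 7) is the authors' own value and was compared only within a list. The summit was the start plus the offset in column 10. The other value columns were not used. The replicate and pooled lists hold exactly 30000 peaks each, so their weak end need not be the end of detectable peaks.

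Genes came from Ensembl release 115 (BDGP6.54) and sequence from the RefSeq copy of the same assembly. A summit within 500 bp of any TSS was a promoter summit and, failing that, took the first of these that held it: a 5′ UTR, a coding exon, a 3′ UTR, an exon of a noncoding gene or an intron. The rest were intergenic. A pooled peak was matched in a replicate to the overlapping peak with the nearest summit. Python 3.11.15, numpy 2.4.6 and matplotlib 3.10.9 were used, and the assignment of summits and the search for words were tested on simulated data. No test was made: there was 1 group, and the genes, lists and words were chosen with earlier results of these data known. The text names the 6 genes, their IDR peaks, the strongest pooled peak of each, up to 3 genes of each list with an IDR summit at a promoter, and the 5 genes most like ush whose window does not hold its strongest peak. Some other genes of the lists are named for shared peaks or for strong peaks away from their promoters. Of the 10 symbols of the gut list 9 were looked up. Alternatives were stricter and longer lists, each replicate alone, and other windows, distances, overlaps and words.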

Additional observations from a re-analysis of the deposited data

How the results depend on the processing

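Of 49 alternative values, 28 were within 1.5 times the reported count. With only the 4242 IDR peaks of highest signal, 0 genes had a summit at their promoter and 3 had one within 5 kb; 13 summits were left, 11 at ush, all 13 in both replicates, 2 with a GATA word and 10 with AAAATA. With the whole pooled list these values were 5 genes at promoters, 103 summits, 57 at ush, 72 in both replicates, 18 with a GATA word and 39 with AAAATA (37.9% of 103, against 28.7% of other pooled peaks). A promoter window of 250 bp gave 0 genes and 1000 bp gave 2. Giving each summit to 1 gene, that with the nearest TSS, left 19 summits, 11 at ush. When at least 50% of both peaks had to overlap, 18 were in both replicates. Any GATA raised 5 windows to 12, and the left flank held AAAATA in 7. From the strongest 8483 peaks of 1 replicate, 1 to 2 genes had a promoter summit (2, ush and grn, without replicate 3), and AAAATA was in 55.6% without replicate 3 and 60.7% without replicate 1, against 37.7% and 39.4% of other peaks. The alternatives for AAAATA were chosen after seeing the data. No paired analysis was possible because there was 1 group. Depth is unknown, and 2 replicates without a control sample limit every count to these lists.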

Other observations

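Several genes of the lists had strong IDR peaks in the gene or within 5 kb but away from their own promoters. Those named here were chosen after their values were seen. Whether such a peak lies nearer to a TSS of a neighbouring gene was not looked up, so it need not belong to the gene named. The window of Caf1-55, which encodes a histone-binding protein shared by several chromatin complexes, held the strongest, with signal 5995 at rank 11. Caf1-55 had none within 500 bp of its own TSSs. dpp, which encodes a BMP ligand that patterns the dorsal ectoderm and the notum, had 4 IDR summits in the gene or within 5 kb. The strongest had signal 3638 at rank 52, and none was within 500 bp of a dpp TSS. osa, which encodes a subunit of the Brahma remodelling complex, had 8 in its window, the strongest with signal 4691 at rank 26, and none at its own promoter. tup, a LIM homeobox gene of the heart and notum lists, had 1, with signal 1714 at rank 395. For simj, which had a promoter peak at 338.9, the strongest of 8 peaks in the gene or within 5 kb had signal 3409 at rank 62.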
